A study of Homo sapiens with 14 samples.

Results

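The 9 genes described here, SMAD6, SMAD7, BAMBI, PMEPA1, SMURF1, SMURF2, SKI, SKIL and TGIF1, encode proteins that hold back signalling through the SMAD transcription factors. They are taken by name, with no measured value in the rule, though they were chosen with earlier results of these data known. They are 9 of the 18129 genes on the array that had a probe set assigned to a single gene. The genes had 25 of the 44898 single-gene probe sets, between 1 and 5 each. For each gene the brightest probe set, by its mean across the 14 arrays, was kept, and the others are reported beside it. In the TGFb pathway, a ligand brings together serine/threonine kinase receptors that phosphorylate SMAD2 and SMAD3, which join SMAD4 and act on target genes in the nucleus. Several of these target genes encode inhibitors of the same pathway, which makes a negative feedback loop. The inhibitors act at the receptor (SMAD7, SMAD6, the decoy receptor BAMBI and the ubiquitin ligases SMURF1 and SMURF2), on access of the SMADs to the receptor (PMEPA1), or in the nucleus as co-repressors of SMAD complexes (SKI, SKIL and TGIF1).

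RNA was measured on 3-prime expression arrays in PANC-1, an established human line of pancreatic carcinoma cells. Cells grown in 10% serum were held in 1% serum for 24 h and treated for a further 48 h, and 200 ng of RNA was labelled for each array. The 4 control samples had no TGFb1 and neither compound; the protocol names a vehicle, and the sample labels state no treatment. A second set of 4 samples had TGFb1 at 5 ng/ml, 3 samples had the same TGFb1 with acriflavine at 2.5 µM, and 3 had it with sodium valproate at 2 mM. Acriflavine, a blend of acridine dyes, intercalates in nucleic acids, and valproate is a short branched fatty acid that inhibits histone deacetylases. All groups shared the line, the low-serum step and the treatment time, and the compounds were present together with the cytokine from the start. No group with acriflavine or valproate but without TGFb1 was analysed here. The values of both compounds below therefore describe them only in the presence of the cytokine. The series describes the replicates as biological but does not say how the cultures were kept apart, so p-values measure the spread between these samples.

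Of 8 markers of pancreatic ductal epithelium, all 8 lay above the brightness limit used for testing, while the leukocyte markers PTPRC and CD3E, the endothelial markers PECAM1, CDH5 and VWF, the hepatocyte marker ALB and the fibroblast markers PDGFRB, LUM and DCN lay below it. CD68, APOA1 and TTR, from the leukocyte and hepatocyte lists, lay above it. The mean log2 intensity of the ductal list was 11.26 to 11.63 over the control arrays, 10.50 to 10.76 with TGFb1, 11.54 to 11.63 with added acriflavine and 10.81 to 10.99 with added valproate. The fibroblast list, of which ACTA2 and THY1 were above the limit, had means of 5.58 to 5.78, 5.79 to 5.99, 6.01 to 6.15 and 6.62 to 6.81 in the same order. The list means moved unevenly by gene. From control to TGFb1, all 8 ductal markers were lower, CDH1 going from 8.98 to 6.58, EPCAM from 10.48 to 9.10 and SOX9 from 12.42 to 12.36. From TGFb1 to added valproate, LUM went from 3.51 to 6.14, THY1 from 8.43 to 9.83 and PDGFRB from 6.36 to 6.40. The part of these shifts in the values of the 9 genes was not tested. In bulk RNA, a change in the number of cells of one kind and a change in RNA per cell cannot be told apart. Some arrays stood apart from their groups. TGFb1 replicate 4 departed most (SD over genes of 0.375 around the mean of its group), then TGFb1 replicate 2 (0.256) and control replicate 4 (0.250), while the same SD lay between 0.0665 and 0.160 on every other array. Replicate 4 exists in these 2 groups alone, and values without it are given beside the results they move.

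The stretch around the transcription start is shown for 4 of the genes. Of these SMAD7, PMEPA1 and SKIL each rose with TGFb1 and fell with added acriflavine. SMURF1 and SKI also rose and fell in these comparisons and are not shown. Both comparisons use the same TGFb1 arrays, so a rise in one and a fall in the other are not independent. SMAD6, a close relative of SMAD7, passed in neither comparison with all arrays. Without TGFb1 replicate 4 it passed for added acriflavine (adjusted p = 0.00202, limma). Each sequence runs 5′ to 3′ on the strand of the gene, from 250 bases before to 50 bases after the start that lies at the 5′ end of the gene's RefSeq span, in build GRCh38.p14. Capitals mark matches to the palindromic SMAD element GTCTAGAC, the SMAD box CAGAC or the GC-rich element GGCGCC, searched on both strands.
SMAD7, chr18:48950916-48951215, minus strand: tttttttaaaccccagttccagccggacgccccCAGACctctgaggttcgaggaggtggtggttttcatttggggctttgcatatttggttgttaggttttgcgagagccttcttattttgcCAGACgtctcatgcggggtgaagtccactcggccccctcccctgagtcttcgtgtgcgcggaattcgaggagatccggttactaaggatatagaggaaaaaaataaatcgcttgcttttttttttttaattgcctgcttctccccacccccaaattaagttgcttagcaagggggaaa
PMEPA1, chr20:57711423-57711722, minus strand: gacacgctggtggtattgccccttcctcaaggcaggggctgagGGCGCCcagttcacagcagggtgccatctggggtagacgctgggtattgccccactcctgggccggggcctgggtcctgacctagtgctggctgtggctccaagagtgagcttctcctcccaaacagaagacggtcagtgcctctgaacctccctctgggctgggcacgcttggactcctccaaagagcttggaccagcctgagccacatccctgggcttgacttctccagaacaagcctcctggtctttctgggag
SKIL, chr3:170357465-170357764, plus strand: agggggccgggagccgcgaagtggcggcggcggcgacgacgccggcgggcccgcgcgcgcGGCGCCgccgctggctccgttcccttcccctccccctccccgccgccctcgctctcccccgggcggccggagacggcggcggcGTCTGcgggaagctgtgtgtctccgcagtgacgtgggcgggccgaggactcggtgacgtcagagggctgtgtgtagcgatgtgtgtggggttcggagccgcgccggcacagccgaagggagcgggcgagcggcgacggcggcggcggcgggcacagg
SMAD6, chr15:66701986-66702285, plus strand: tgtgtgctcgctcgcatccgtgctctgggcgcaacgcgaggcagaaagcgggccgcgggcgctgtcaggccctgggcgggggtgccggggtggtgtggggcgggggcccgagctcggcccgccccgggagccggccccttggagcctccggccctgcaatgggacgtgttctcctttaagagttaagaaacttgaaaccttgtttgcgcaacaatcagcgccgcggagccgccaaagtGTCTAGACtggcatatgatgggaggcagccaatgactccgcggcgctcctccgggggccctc
The SMAD7 window holds 2 matches to CAGAC, the PMEPA1 window 1 match to GGCGCC, and the SKIL window 1 match to each of CAGAC and GGCGCC. The SMAD6 window holds the palindrome GTCTAGAC, which begins 12 bases before the start. Among 35116 windows of the same length in the RefSeq table, GTCTAGAC was in 0.202%, CAGAC in 45.3% and GGCGCC in 19.2%. Of the 9 genes, 8 matched that table, all but SKI. Over their 19 windows, 1 held GTCTAGAC, 14 held CAGAC (in 7 genes, all but SMAD6) and 3 held GGCGCC (in BAMBI, PMEPA1 and SKIL). The AP-1 site TGANTCA was in 7.71% of all windows and, among these genes, in 3 windows of TGIF1. These are matches of letters in one window per start, and factor binding was not measured.

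TGFb1 alone was compared with control to see which of the inhibitors respond to the cytokine. The largest differences were in PMEPA1, which was 3.71-fold higher with TGFb1, SMAD7 (2.48-fold) and SKIL (1.97-fold), followed by SMURF1 (1.71-fold), SMURF2 (1.61-fold) and SKI (1.42-fold). SMAD6, BAMBI and TGIF1 did not pass the test. In a limma fit over all 14 arrays, a gene was said to rise or fall where its p, adjusted by Benjamini-Hochberg over the 10877 genes bright enough to test, was under 0.05, and all 9 genes were among those tested. By that rule 6 of the 9 rose and 0 fell (6 and 0 also at an unadjusted p under 0.05), where 18.4% of all genes tested were called, 8.39% upward and 9.97% downward. The median difference of the 9 genes was 0.68 on the log2 scale, beside 0.00 over all genes tested. With the replicate number as a block, 6 of the 9 were again called, while calls over all genes went from 1997 to 3148. Over all 28 alternatives 5 or 6 of the 9 were called, as SKI lost its call in 11 of them. With the replicates 4 left out together, 3155 genes were called. Same-numbered arrays of these 2 groups deviated together most in replicate 4 (correlation 0.705). Over replicates 1 to 3 alone the correlations were -0.258, 0.151 and 0.589.

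**Figure D1:**
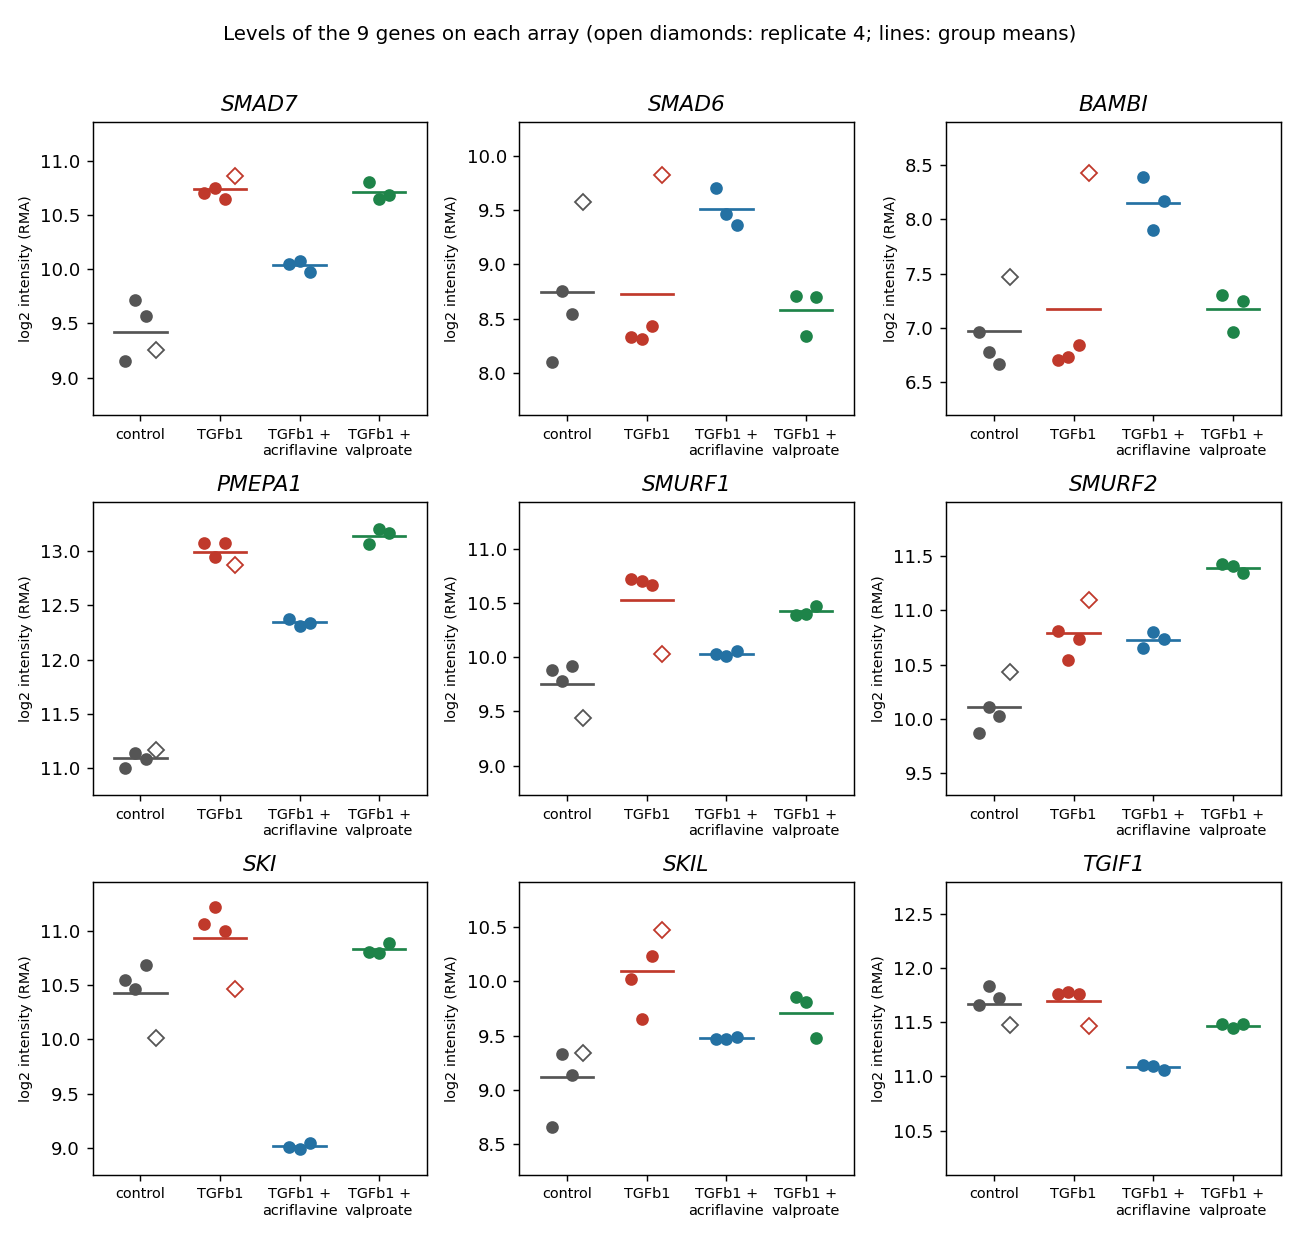
Log2 intensity of the kept probe set of each gene (vertical axis, RMA values) on every array, by group along the horizontal axis, with lines at the group means and open diamonds for replicate 4 of the control and TGFb1 groups. PMEPA1 and SMAD7 are higher on every array with TGFb1 than on any control array, and SKI is lowest on the 3 acriflavine arrays (8.99 to 9.05).

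Acriflavine added to TGFb1 was compared with TGFb1 alone to see how the levels of these inhibitors differed when the compound was present. SKI fell the most, by 1.92 on the log2 scale (3.78-fold lower), and SMAD7, PMEPA1, SKIL, TGIF1 and SMURF1 fell by 0.50 to 0.70. BAMBI rose by 0.98 on the log2 scale. SMAD6 (0.78) and SMURF2 (-0.06) did not pass. The TGFb1 arrays enter both this comparison and the one with control, so a high value on them favours a rise in one and a fall in the other. The values of each are given side by side, and genes named in both are a description only. The share of all genes called in both was not computed. In all, 6 of the 9 fell and 1 rose, where 43.6% of all genes tested were called, 19.1% downward and 24.5% upward. The median of the 9 was -0.60, beside 0.03 over all genes tested.

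Valproate added to TGFb1 was compared with TGFb1 alone in the same way. Of the 9 genes SMURF2 rose, by 0.60 on the log2 scale (1.51-fold), and the other 8 genes did not pass. This 1 rise and 0 falls (1 and 1 at an unadjusted p under 0.05) stand beside 31.3% of all genes called, 15.1% upward and 16.2% downward. The median of the 9 genes was -0.11, beside -0.01 over all genes tested. The count depended on replicate 4, since 3 of the 9 genes were called without TGFb1 replicate 4 (40.4% of all genes) and 5 with replicate 4 left out of both groups (47.9% of all genes). Without TGFb1 replicate 2 it was 2 (32.4% of all genes).

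**Figure D2:**
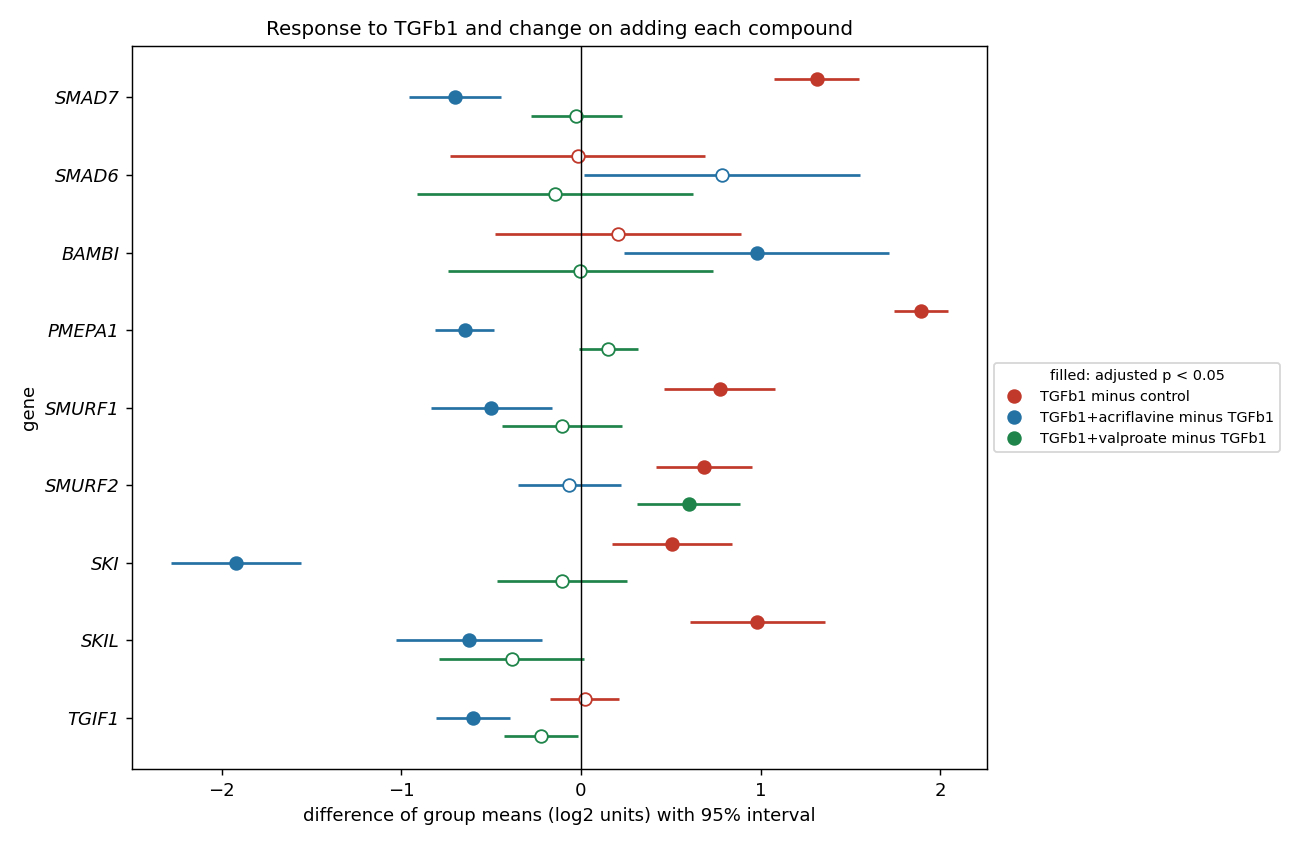
Difference of group means on the log2 scale (horizontal axis) with its 95% interval from the limma fit for each gene (vertical axis), for TGFb1 minus control and for each compound with TGFb1 minus TGFb1 alone. Filled points passed an adjusted p of 0.05: 6 genes lie to the right for TGFb1, 6 to the left and BAMBI to the right for acriflavine, and SMURF2 to the right for valproate.

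SMAD7 blocks the type I receptor and recruits SMURF ubiquitin ligases to it. The log2 intensity of SMAD7 was 9.16, 9.72, 9.57 and 9.25 on the control arrays and 10.70, 10.74, 10.65 and 10.86 on the TGFb1 arrays. With added acriflavine it was 10.05, 10.08 and 9.98, and with added valproate 10.80, 10.65 and 10.68. The acriflavine arrays thus lay between the control and TGFb1 arrays without overlap with either, and the valproate arrays lay among those with TGFb1 alone. SMAD7 rose by 1.31 ± 0.110 (SE of the limma fit, n = 4 and 4) with TGFb1 (adjusted p = 2.13e-06, limma). It fell by 0.70 with added acriflavine (adjusted p = 0.000315, n = 3 and 4), which left it 0.61 ± 0.119 above control (adjusted p = 0.000848). For added valproate the difference from TGFb1 was -0.03, with a 95% interval of -0.28 to 0.23, and that from control 1.29 ± 0.119 (adjusted p = 2.21e-06). The order of the levels was therefore control, acriflavine, then valproate and TGFb1 alone, the last pair not distinguished.

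PMEPA1 encodes a membrane protein that binds SMAD2 and SMAD3 and keeps them from the receptor. Its arrays gave 11.01, 11.14, 11.08 and 11.17 in control and 13.07, 12.95, 13.07 and 12.87 with TGFb1. They gave 12.38, 12.31 and 12.34 with added acriflavine and 13.06, 13.20 and 13.16 with added valproate. Control, acriflavine and TGFb1 arrays formed 3 ranges that did not overlap, and the valproate range overlapped that of TGFb1. PMEPA1 rose by 1.89 ± 0.0703 with TGFb1 (adjusted p = 9.44e-10). It fell by 0.65 with added acriflavine (SE 0.0759, adjusted p = 1.55e-05) and stayed 1.25 ± 0.0759 above control (adjusted p = 7.65e-08). The difference for added valproate, 0.15 ± 0.0759, missed the threshold (adjusted p = 0.153, 95% interval -0.01 to 0.31). A second PMEPA1 probe set passed in that comparison at 0.31 ± 0.0756 (adjusted p = 0.00652) and read -1.12 ± 0.0756 for acriflavine, a larger fall than on the kept probe set. The third did not pass in that comparison. It read 12.93, 12.98 and 13.10 with valproate and 12.86, 12.77, 12.86 and 12.05 with TGFb1, where the lowest value was on replicate 4. With the mean of the probe sets the valproate difference was 0.28 and passed in limma (adjusted p = 0.0281, in a range of 0.0281 to 0.439).

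SMAD6 is the second inhibitory SMAD and acts chiefly on the BMP branch of the family. Its level was 8.10, 8.75, 8.55 and 9.57 in control and 8.33, 8.32, 8.43 and 9.82 with TGFb1, against 9.70, 9.46 and 9.36 with acriflavine and 8.71, 8.34 and 8.70 with valproate. In both groups of 4 the replicate 4 array was the highest, and it reached or passed the range of the acriflavine arrays, which lay above all the rest. The difference between TGFb1 and control was -0.02 ± 0.330, with a 95% interval from -0.73 to 0.69. It was -0.11 in replicates 1 to 3 and 0.24 in replicate 4. Acriflavine against TGFb1 gave 0.78 ± 0.357 (adjusted p = 0.0924), and without TGFb1 replicate 4 the same difference was 1.15 and passed (adjusted p = 0.00202, in a range of 2.24e-05 to 0.231 over all alternatives). Added valproate differed from TGFb1 alone by -0.14 (95% interval -0.91 to 0.62), and by 0.22 without TGFb1 replicate 4, where the sign turned and the difference again did not pass. The probe sets of SMAD6 did not read alike, since for acriflavine against TGFb1 the second gave 0.56 ± 0.191 (adjusted p = 0.0297) and the third 0.07 ± 0.103 (adjusted p = 0.628).

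BAMBI is a transmembrane protein related to the type I receptors that lacks their kinase and acts as a decoy. Its single probe set was close to the limit for testing, at the 45.1 percentile of brightness among all genes. The arrays read 6.96, 6.78, 6.67 and 7.47 in control and 6.70, 6.73, 6.84 and 8.43 with TGFb1. With acriflavine they read 8.39, 7.90 and 8.16, and with valproate 7.30, 6.96 and 7.24. TGFb1 replicate 4 was the highest array of all, and the other TGFb1 arrays lay within the range of the control arrays. TGFb1 minus control was 0.21 ± 0.318 (adjusted p = 0.709), made up of -0.04 in replicates 1 to 3 and 0.95 in replicate 4. BAMBI rose with acriflavine added to TGFb1, by 0.98 ± 0.343 (adjusted p = 0.0328), though the groups overlapped through TGFb1 replicate 4. That call was lost without TGFb1 replicate 1, 2 or 3, without acriflavine replicate 1 or 3, and in a fit of the 2 groups alone, at adjusted p up to 0.117; without TGFb1 replicate 4 the difference was 1.40. Acriflavine against control gave a rise of 1.18 ± 0.343 (adjusted p = 0.0114), which was lost without acriflavine replicate 1 (1.07, adjusted p = 0.0504). Valproate against TGFb1 was 0.00 ± 0.343 (adjusted p = 0.996), and with replicate 4 left out of both groups it was 0.41 and passed (adjusted p = 0.0141, in a range of 0.0141 to 0.998).

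SMURF1 and SMURF2 are related ubiquitin ligases that mark SMADs and, with SMAD7, the receptor for degradation. SMURF1 read 9.88, 9.78, 9.92 and 9.44 in control, 10.72, 10.70, 10.66 and 10.02 with TGFb1, 10.03, 10.01 and 10.05 with acriflavine, and 10.39, 10.40 and 10.47 with valproate. Replicate 4 was the lowest array in both groups of 4, and in the TGFb1 group it fell within the acriflavine range. SMURF1 rose by 0.77 ± 0.144 with TGFb1 (adjusted p = 0.00193), and the difference was 0.83 in replicates 1 to 3 and 0.58 in replicate 4. It fell by 0.50 with added acriflavine (SE 0.155, adjusted p = 0.0186), a call lost at adjusted p of 0.0501 to 0.0561 without TGFb1 replicate 1 or 3, without acriflavine replicate 1 or 2, or in a fit of the 2 groups alone. Its second probe set fell by 0.54 in that comparison without overlap between the groups (adjusted p = 0.00103). Valproate against TGFb1 was -0.11 ± 0.155 (95% interval -0.44 to 0.23), and -0.27 without TGFb1 replicate 4, where it passed (adjusted p = 0.0486, in a range of 0.0025 to 0.888).

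SMURF2, the second of these ligases, rose with TGFb1 and again with valproate. Its arrays gave 9.87, 10.11, 10.02 and 10.44 in control, 10.81, 10.54, 10.73 and 11.09 with TGFb1, 10.65, 10.80 and 10.74 with acriflavine, and 11.43, 11.41 and 11.34 with valproate. The valproate arrays lay above every other array, and the acriflavine arrays lay among those with TGFb1 alone. SMURF2 rose by 0.68 ± 0.124 with TGFb1 (adjusted p = 0.00161) and by a further 0.60 ± 0.134 when valproate was added (adjusted p = 0.00381). Against control, the level with valproate was 1.28 ± 0.134 higher, or 2.43-fold (adjusted p = 6.65e-06). The difference between acriflavine and TGFb1 alone was -0.06 ± 0.134 (95% interval -0.35 to 0.22), and 0.04 without TGFb1 replicate 4. A second probe set of SMURF2 read 0.66, 0.75 and 0.10 for TGFb1 against control, added valproate and added acriflavine, and passed in the first of these and for valproate. The third, which lay below the brightness limit and has no adjusted p, read 0.45, 0.48 and -0.50.

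SKI is a co-repressor that binds SMAD complexes and brings histone deacetylases to them, and SKIL encodes SnoN, its close relative. SKI read 10.54, 10.46, 10.68 and 10.01 in control, 11.06, 11.22, 10.99 and 10.46 with TGFb1, 9.01, 8.99 and 9.05 with acriflavine, and 10.80, 10.79 and 10.89 with valproate. The 3 acriflavine arrays were close together and below every array of the other groups, and replicate 4 was the lowest array in both groups of 4. SKI rose by 0.51 ± 0.155 with TGFb1 (adjusted p = 0.0363), with overlap between the groups. That call was lost in 11 of 28 alternatives, among them the fit of the 2 groups alone (adjusted p = 0.142). The other 10 left out a single array: control replicate 1, 2 or 4, TGFb1 replicate 1, 2 or 3, any acriflavine array, or valproate replicate 1. The difference was lowest without control replicate 4 (0.37, adjusted p = 0.0893) and the highest adjusted p among these was without TGFb1 replicate 2 (0.41, adjusted p = 0.100), in a range of 5.24e-05 to 0.142 over all alternatives. With added acriflavine SKI fell by 1.92 (SE 0.168, adjusted p = 1.24e-06), to a level that was also lower than in control, by a difference of -1.41 ± 0.168 (adjusted p = 1.83e-05). The 4 other probe sets of SKI read -0.84 to -1.91 for acriflavine against TGFb1. The 3 of these that were bright enough to test fell, where 19.4% of all single-gene probe sets tested fell. For added valproate the kept probe set differed by -0.11 ± 0.168 (95% interval -0.47 to 0.25), and one other probe set fell by 0.40 (adjusted p = 0.0206). On the kept probe set the difference was -0.26 without TGFb1 replicate 4 and did not pass. It passed with replicate 4 left out of both groups (-0.26, adjusted p = 0.0126), in a range of 0.0126 to 0.970.

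SKIL read 8.66, 9.34, 9.13 and 9.34 in control and 10.02, 9.66, 10.24 and 10.48 with TGFb1. It read 9.47, 9.47 and 9.49 with acriflavine and 9.85, 9.81 and 9.48 with valproate. The acriflavine arrays lay between the control and TGFb1 arrays without overlap with either. SKIL rose by 0.98 ± 0.175 with TGFb1 (adjusted p = 0.00138) and fell by 0.62 with added acriflavine (SE 0.189, adjusted p = 0.0158). Between the acriflavine group and control the difference of 0.36 ± 0.189 missed the threshold (adjusted p = 0.136, 95% interval -0.05 to 0.76). It passed with replicate 4 left out of both groups (0.43, adjusted p = 0.0411) and with the replicate block (0.46, adjusted p = 0.0399), in a range of 0.0158 to 0.355. Valproate against TGFb1 was -0.39 ± 0.189 (adjusted p = 0.142), and -0.53 without TGFb1 replicate 2, where it passed (adjusted p = 0.0317, in a range of 0.0317 to 0.412).

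TGIF1 is a homeodomain co-repressor that recruits histone deacetylases to SMAD2 and SMAD3. Its level was 11.66, 11.83, 11.72 and 11.47 in control and 11.76, 11.78, 11.76 and 11.46 with TGFb1, against 11.11, 11.10 and 11.06 with acriflavine and 11.48, 11.44 and 11.48 with valproate. The acriflavine arrays lay below all others, and the valproate arrays lay at the level of the replicate 4 arrays of the control and TGFb1 groups. The difference of TGFb1 from control was 0.02 ± 0.0889, with a 95% interval of -0.17 to 0.21. TGIF1 fell by 0.60 with added acriflavine (SE 0.0960, adjusted p = 0.000205) and was lower than control there, at -0.58 ± 0.0960 (adjusted p = 0.000255). Valproate against TGFb1 was -0.22 ± 0.0960 (adjusted p = 0.0974), and -0.30 without TGFb1 replicate 4, where it passed (adjusted p = 0.0108, in a range of 0.00138 to 0.218).

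The 2 compound groups were also set against control, whose arrays are those that the TGFb1 group was set against. With acriflavine and TGFb1 together, PMEPA1, BAMBI, SMURF2 and SMAD7 were above control and SKI and TGIF1 below it, so that 4 of 9 rose and 2 fell, where 47.7% of all genes tested were called, 26.1% upward and 21.6% downward. Without TGFb1 replicate 4 or control replicate 4, SMAD6 passed as well in that comparison, at 0.77 (adjusted p = 0.0152) and 1.04 (adjusted p = 0.0196), from 0.77 ± 0.357 (adjusted p = 0.0940) with all arrays and a range of 2.63e-05 to 0.234. SMURF1 passed without TGFb1 replicate 4 (0.27, adjusted p = 0.0270, in a range of 0.0241 to 0.388). With valproate and TGFb1, PMEPA1 (2.04 ± 0.0759, 4.12-fold), SMAD7, SMURF2, SMURF1 (0.67 ± 0.155) and SKIL (0.59 ± 0.189) were higher than control. These 5 of 9 rose and 0 fell, where 36.7% of all genes were called, 16.9% upward and 19.8% downward. SKI with valproate was 0.40 ± 0.168 above control and did not pass (adjusted p = 0.0762), and it passed without TGFb1 replicate 4 (0.40, adjusted p = 0.0157) or control replicate 3 (0.49, adjusted p = 0.0494), in a range of 0.00369 to 0.288. TGIF1, at -0.20 ± 0.0960, did not pass with all arrays, and it passed without TGFb1 replicate 4 (-0.20, adjusted p = 0.0470) or control replicate 4 (-0.27, adjusted p = 0.0353), in a range of 0.00184 to 0.283. The call for SKIL (adjusted p = 0.0237) was lost without control replicate 1 (0.44, adjusted p = 0.0643), valproate replicate 1 (0.52, adjusted p = 0.0931) or valproate replicate 2 (0.55, adjusted p = 0.0812), in a range of 0.00109 to 0.0931. With replicate 4 left out of both groups, 8 of the 9 genes were called for valproate against control and 9 of 9 for acriflavine against control, where 50.9% and 59.0% of all genes tested were called.

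Acriflavine was set against valproate directly, both in the presence of TGFb1, though at different molar doses. SKI was 3.51-fold lower with acriflavine than with valproate (-1.81 ± 0.179, adjusted p = 2.18e-06). PMEPA1 (-0.80 ± 0.0811), SMAD7 (-0.68 ± 0.127), SMURF2 (-0.66 ± 0.143) and TGIF1 (-0.38 ± 0.103) were lower as well, and BAMBI was higher (0.98 ± 0.367, adjusted p = 0.0376). By the same rule 5 of the 9 were lower and 1 was higher, where 51.5% of all genes tested were called, 23.3% downward and 28.3% upward. SMAD6 (0.93 ± 0.381, adjusted p = 0.0562) and SMURF1 (-0.39 ± 0.166, adjusted p = 0.0634) missed the threshold although their 3 arrays did not overlap with those of valproate, and both passed without TGFb1 replicate 4 (adjusted p = 0.00692 and 0.00498) or control replicate 4 (adjusted p = 0.0299 and 0.0417), arrays that enter the shared estimate of spread. SMAD6 passed without control replicate 1 too (adjusted p = 0.0465). Over all alternatives the adjusted p ran from 1.94e-05 to 0.158 for SMAD6 and from 4.82e-05 to 0.144 for SMURF1. SKIL differed by -0.24 (95% interval -0.67 to 0.20). The BAMBI call was lost without acriflavine replicate 1 or 3 or any 1 of the 3 valproate arrays, at adjusted p of up to 0.116.

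**Figure D3:**
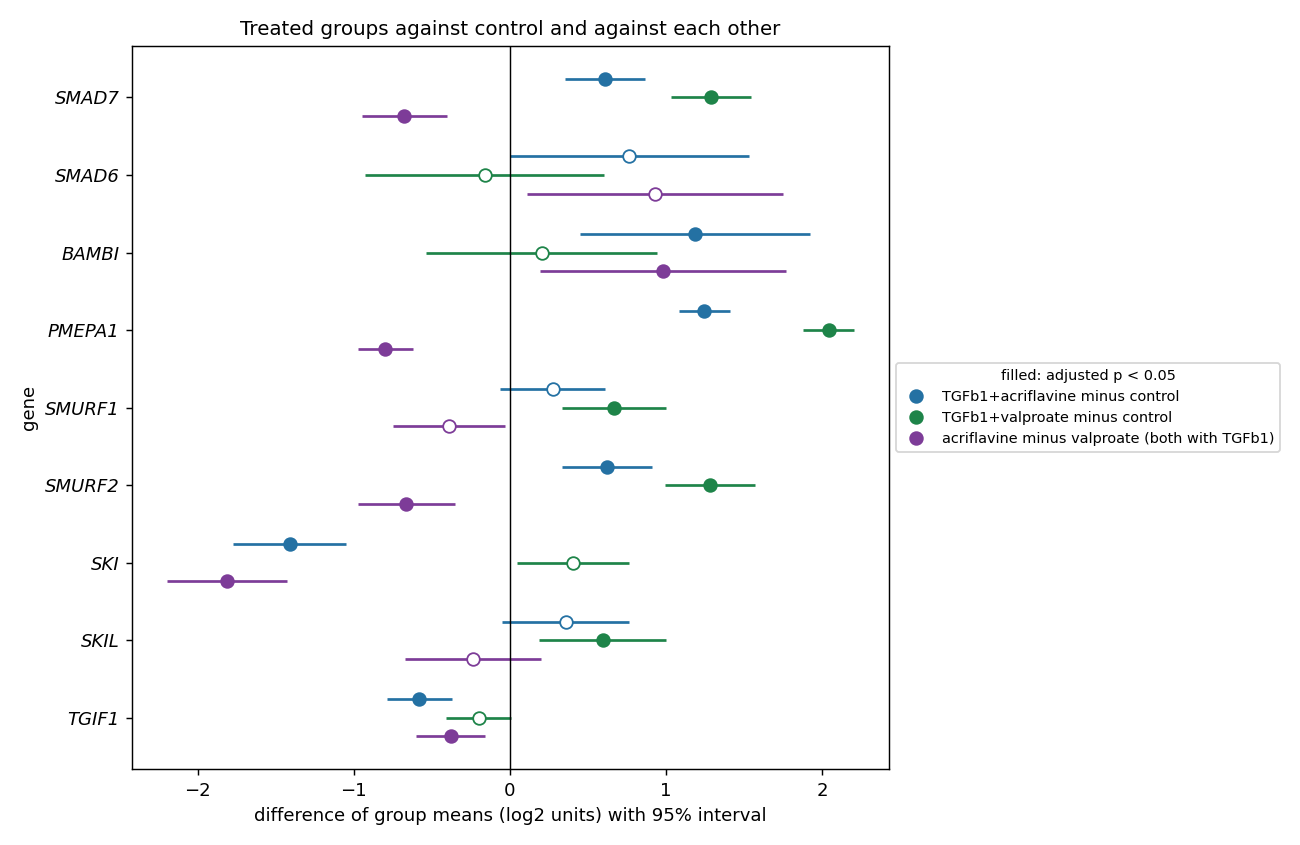
Difference of group means on the log2 scale (horizontal axis) with its 95% interval for each gene (vertical axis), for each compound with TGFb1 minus control and for acriflavine minus valproate; filled points passed an adjusted p of 0.05. SMAD7, PMEPA1 and SMURF2 lie to the right of 0 for both compounds against control, and SKI and TGIF1 lie to the left for acriflavine.

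The probe sets that were not kept gave a check within each gene. When every single-gene probe set was tested, 23 of the 25 were bright enough. Of these 16 rose and 0 fell with TGFb1, where 7.34% and 8.56% of the 26938 single-gene probe sets tested did so. When acriflavine was added 2 rose and 17 fell (21.1% and 19.4% of all probe sets), and when valproate was added 3 rose and 1 fell (12.5% and 15.6%). All 3 probe sets of SMAD7, PMEPA1 and SKIL rose with TGFb1. They also fell with acriflavine, in a comparison that shares the TGFb1 arrays. Probe sets of SMAD7 were close to each other, reading 1.17 to 1.31 for TGFb1 against control and -0.57 to -0.70 for acriflavine against TGFb1. One SKI probe set did not pass for TGFb1 against control, at 0.21 ± 0.115 (adjusted p = 0.240). Probe sets of one gene share its transcripts and the same samples, and are not replicates.

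**Figure D4:**
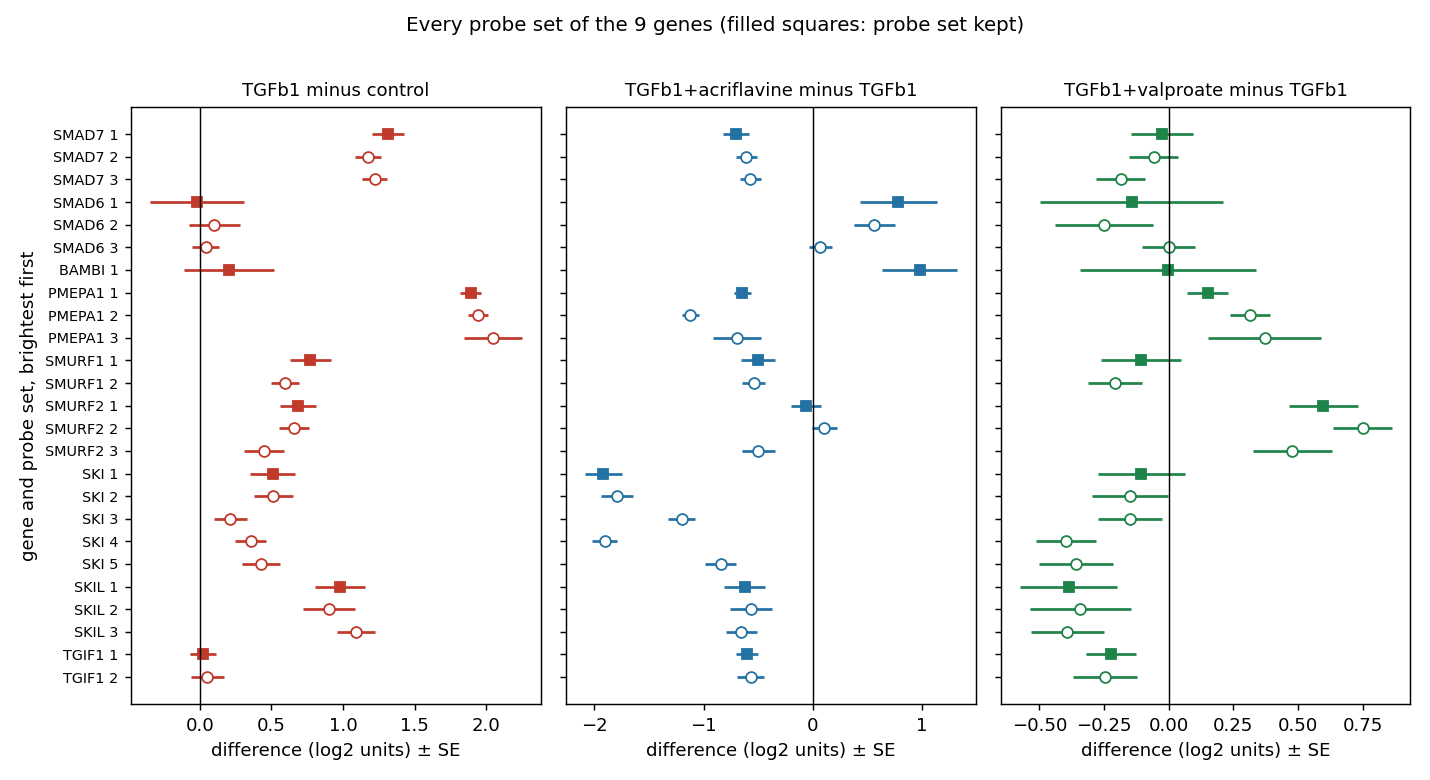
Difference of group means on the log2 scale ± SE (horizontal axes, each panel with its own scale) for every probe set of the 9 genes (vertical axis, brightest first; squares are the kept probe sets), for TGFb1 minus control and for each compound with TGFb1 minus TGFb1 alone. All probe sets of SKI lie left of 0 for acriflavine, and those of SMURF2 lie right of 0 for valproate.

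Other genes of the pathway stood beside the inhibitors as follows, in lists set by their role and chosen with earlier results of these data known. Of all genes tested, 18.4%, 43.6% and 31.3% were called for TGFb1, added acriflavine and added valproate. By direction, 8.39% rose and 9.97% fell with TGFb1. The same shares were 24.5% and 19.1% with added acriflavine, and 15.1% and 16.2% with added valproate. Of 14 target genes of SMADs outside the 9, 12 rose with TGFb1 and 0 fell (median 1.20). The largest rises were in COL1A1, a fibrillar collagen (3.68 ± 0.254, adjusted p = 3.35e-07), and SNAI1, a repressor of E-cadherin (2.63 ± 0.146, adjusted p = 3.57e-08). When acriflavine was added, 7 of these 14 fell and 0 rose (median -0.58), with COL1A1 at -3.88 and SNAI1 at -1.56, and when valproate was added 2 rose and 2 fell. Of 14 ligands, receptors and latency proteins, 6 rose and 1 fell with TGFb1, led by the latent TGFb binding protein LTBP2 (1.67 ± 0.0999) and TGFB1 itself (1.24 ± 0.330), and by the co-receptor TGFBR3 among the falls (-1.27 ± 0.254). With acriflavine 1 rose and 6 fell, and with valproate 3 rose and 2 fell.

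Of 6 signalling SMADs tested, 0 rose and 2 fell with TGFb1 (0 and 3 at an unadjusted p under 0.05), namely SMAD3 (-0.44 ± 0.0785, adjusted p = 0.0014) and SMAD1 (-0.36 ± 0.0918, adjusted p = 0.0139), and neither passed when either compound was added. With acriflavine 0 of the 6 rose and 2 fell, and the same counts were found with valproate. As calls in either direction, this 33.3% lies below the 43.6% and close to the 31.3% of all genes called there. As falls, it stands beside 19.1% and 16.2% of all genes tested. Among 16 other modulators of SMAD turnover and phosphorylation, 0 passed for TGFb1 against control in limma (2 upward and 0 downward at an unadjusted p under 0.05), while 4 rose and 3 fell with acriflavine and 1 rose and 2 fell with valproate. Of 9 other co-repressors and partners, 1 rose with TGFb1, the deacetylase HDAC3 (0.21 ± 0.0654, adjusted p = 0.041), and 0 fell. There 1 rose and 2 fell with acriflavine, and 0 rose and 2 fell with valproate.

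**Figure D5:**
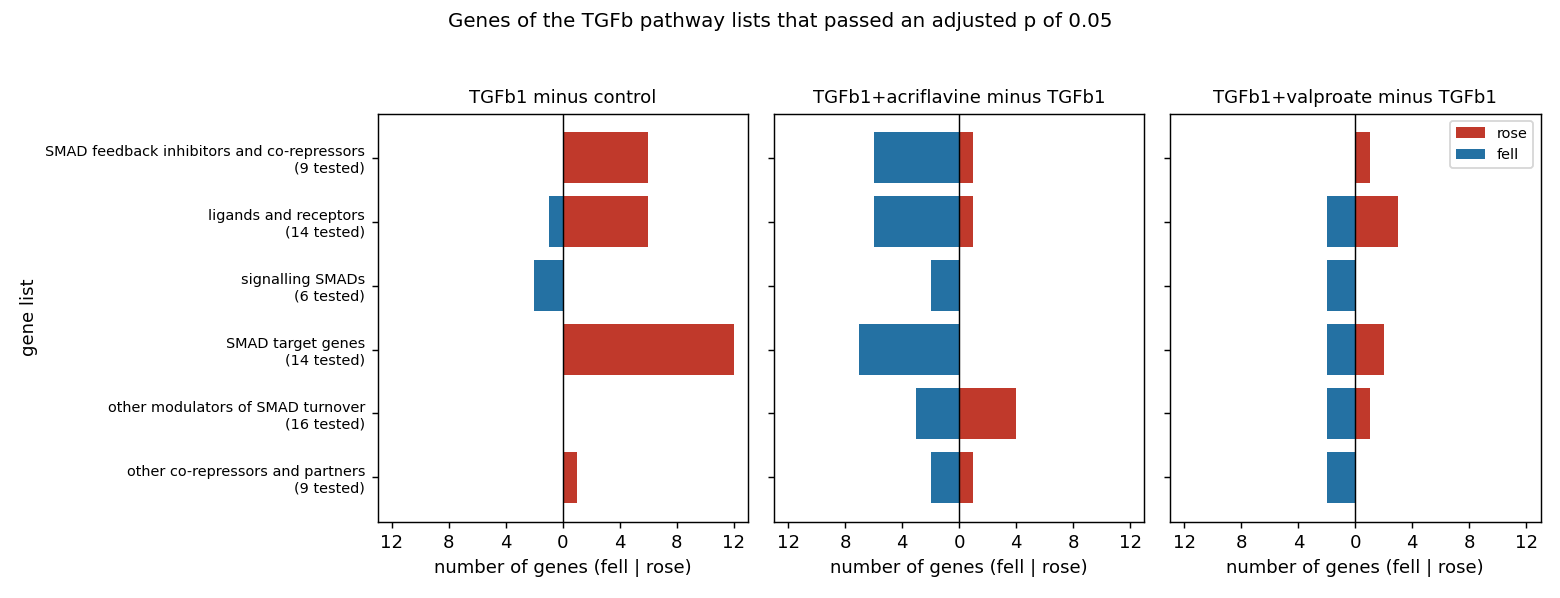
Number of genes (horizontal axis; rises to the right of 0, falls to the left) that passed an adjusted p of 0.05 in each pathway list (vertical axis, with the number tested), for TGFb1 minus control and for each compound with TGFb1 minus TGFb1 alone. For TGFb1 minus control the bars reach 6 of 9 for the feedback inhibitors and co-repressors and 12 of 14 for the SMAD target genes.

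Over the 14 arrays, the genes whose log2 values ran most like those of an inhibitor were found by Pearson's r. The points share the 4 groups, so the r values mix differences between group means with deviations within groups, and are given as a description. Deviations within groups were large for SMAD6 and BAMBI, whose SDs in the TGFb1 group were 0.73 and 0.84. In that group replicate 4 was the highest array for both genes (9.82 and 8.43). SMAD7 was followed most closely by SNAI1 (r = 0.965) and DLX2 (0.960), and PMEPA1 by PFKFB3 (0.989) and ARHGEF18 (0.984). For SKI these were CD151 (0.976) and HMOX1 (0.974), and for SKIL SPDL1 (0.933) and EML1 (0.913). SMURF1 ran with DNAJB2 (0.975) and MCAM (0.958), SMURF2 with IER3 (0.979) and TPST1 (0.972), and TGIF1 with TXLNA (0.983) and NPRL3 (0.973). SMAD6 ran with CDK13 (0.949) and MDM1 (0.945) and BAMBI with FASTKD5 (0.959) and ERCC3 (0.955).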

How the data were processed

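The authors deposited log2 intensities computed by RMA in the affy package, version 1.44.0, per the submitters' processing notes; which arrays were normalised together is not given in the sources used here. RMA quantile-normalises arrays, so a shift of all genes at once would not show. The table held 49193 probe sets on 14 arrays, with array medians of 7.16 to 7.21. Symbols came from the platform's probe-gene annotation, matched by gene ID to RefSeq for 44871 probe sets.

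Per gene, the probe set with the highest mean was kept, and the dimmest 40% of genes were not tested, which left 10877. limma 3.58.1 (R 4.3.3) fitted 1 mean per group over all arrays, with 6 contrasts, eBayes and Benjamini-Hochberg adjustment over genes at 0.05. The fit was tested on simulated data with independent noise of equal spread on all arrays. Those data leave out the wider spread and shared deviation of the replicates 4. All 9 genes are named whatever their result, with the 2 tested genes of highest Pearson's r for each, and from each pathway list the 2 largest passing rises and falls for TGFb1 against control. The members and lists were chosen with earlier results of these data known.

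The main fit had no term for the replicate number, which entered as a block only among the alternatives. For control and TGFb1, the deviations of same-numbered arrays from their group means correlated at 0.387, 0.359, 0.543 and 0.705. Over replicates 1 to 3 the correlations were -0.258, 0.151 and 0.589. For valproate they were all negative, at -0.489, -0.435 and -0.185 against TGFb1 and -0.360, -0.197 and -0.231 against control. For acriflavine they were -0.0272, 0.467 and 0.0861 against TGFb1 and -0.0954, 0.257 and 0.0623 against control. Between the 2 compounds they were 0.0907, -0.248 and -0.381. The replicate block therefore did not match arrays that deviated together in the valproate comparisons with TGFb1 and control. Alternatives were other brightness limits, scalings, probe-set rules and variance models, single-comparison fits, a block for the replicate number, a term for the replicates 4, and arrays left out. Leaving out TGFb1 replicate 2 with the replicates 4 was added after the data were seen. The number of arrays limits the precision. Promoter windows were read from a RefSeq table (GRCh38.p14). The plots used matplotlib 3.10.9 (Python 3.11.15).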

Additional observations from a re-analysis of the deposited data

Results flagged for a closer look

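For the 9 genes, 18 groups of 4 arrays were examined with Dixon's test at its 95% level, and in 4 of them a single array stood apart. For independent groups, chance alone gives about 1 such group in 20. The 9 genes were read on the same arrays, so the 18 groups are not independent and that share is no measure for the 4. All 4 arrays were replicate 4 of the TGFb1 group. SMAD6 was highest there at 9.82, the next TGFb1 array being at 8.43. BAMBI was highest at 8.43, the next being at 6.84. SMURF1 was lowest at 10.02, the next being at 10.66, and TGIF1 was lowest at 11.46, the next being at 11.76. Control replicate 4 was likewise the highest control array for SMAD6 (9.57) and BAMBI (7.47) and the lowest for SMURF1 (9.44) and TGIF1 (11.47).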

How the results depend on the processing

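The 54 differences of the 9 genes over 6 comparisons were recomputed under 28 alternatives, which gave 1506 values. Of these 1364 kept sign and side of the threshold, 31 lost a call and 74 gained one with the same sign. The other 37, in 8 differences that were not called with all arrays, changed sign, and 35 of them passed neither way. Of 31 called differences, 25 kept direction and call in all alternatives run. The 2 that changed sign and passed were BAMBI for valproate against TGFb1, at 0.41 with the replicates 4 left out together and 0.40 with TGFb1 replicate 2 left out too. Under the strictest brightness limit BAMBI had no value.

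For TGFb1 against control, 963 genes were called in a fit of the 2 groups alone, 3148 with the replicate block, 3547 with a term for the replicates 4 and 3155 with the replicates 4 left out together, and 1387 to 3149 with 1 array left out. For valproate against TGFb1, 2263 genes were called with the 2 groups alone, 5208 without the replicates 4 and 5364 without TGFb1 replicate 2 as well. The members called there were 2 with the mean of probe sets, 4 with the replicate block, 4 with the term for the replicates 4, 5 without the replicates 4 and 6 without TGFb1 replicate 2 as well, and 1 to 3 with 1 array left out. For valproate against control, 8 members were called with the replicate block, 8 with the term, 8 without the replicates 4 and 8 without TGFb1 replicate 2 as well, where 6292 genes were called. The cause was not tested. The replicate block changed no call of the 9 genes for TGFb1 against control, while SKI lost its call there in 11 of the 28 alternatives. Among the 9 genes, the SE for TGFb1 against control was widest for SMAD6 (0.330) and BAMBI (0.318), which limits what can be told apart there.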
